A study of Mus musculus with 18 samples.

Results

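The genes described here are 10 mouse genes of 3 connected inflammatory pathways, followed through the day in liver. They were given by name under a rule that uses no measured value, though earlier results of these data were known, and all 10 are among the 14451 genes of the deposited table. They comprise the interleukin 6 receptor Il6ra with its downstream factor Stat3 and the feedback inhibitor Socs3, the receptors Il1r1, Tlr2 and Tlr4 with their adaptor Myd88, and the NF-kB subunits Nfkb1 and Rela with the inhibitor Nfkbia. RNA was sequenced from 18 whole livers, 3 at each of ZT1, ZT5, ZT9, ZT13, ZT17 and ZT21, where ZT (zeitgeber time) counts hours from lights on under 12 h of light and 12 h of dark. All animals were wild-type males of 8 to 9 weeks, none had an immune or other treatment named in the labels, and livers were frozen whole in TRIzol before polyadenylated RNA was taken. Of 5 mice kept per time point, the 3 with the best RNA were sequenced, and each liver is a separate mouse, numbered below as in the labels.

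Toll-like receptors recognise microbial products, and together with the interleukin 1 receptor they signal through the adaptor MyD88 to kinases that destroy the inhibitor IkB and so let NF-kB enter the nucleus. Interleukin 6 bound to its receptor activates the kinases of the JAK family, which phosphorylate STAT3. In hepatocytes STAT3 switches on the genes of the acute phase response, and it also induces SOCS3, which shuts the receptor complex off again. In a whole liver, hepatocytes supply most of the RNA, while resident macrophages (Kupffer cells) and sinusoidal endothelial cells carry much of the Toll-like receptor expression.

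The promoters of the 2 genes with the widest daily range, Il6ra and Socs3, and that of Nfkbia, an inhibitor that NF-kB itself induces, are shown because they hold letters of binding motifs for the factors of these pathways. Each is 250 bases before to 50 after a RefSeq start site, from GRCm38.p6, on the minus strand. Il6ra lies at chr3:89913147-89913446, Socs3 at chr11:117969317-117969616 and Nfkbia at chr12:55492598-55492897. Capitals mark matches on either strand to the kappaB motif GGGNNNNNCC, the STAT motif TTCNNNGAA or the E-box CACGTG, which the clock proteins CLOCK and BMAL1 can bind.
Il6ra: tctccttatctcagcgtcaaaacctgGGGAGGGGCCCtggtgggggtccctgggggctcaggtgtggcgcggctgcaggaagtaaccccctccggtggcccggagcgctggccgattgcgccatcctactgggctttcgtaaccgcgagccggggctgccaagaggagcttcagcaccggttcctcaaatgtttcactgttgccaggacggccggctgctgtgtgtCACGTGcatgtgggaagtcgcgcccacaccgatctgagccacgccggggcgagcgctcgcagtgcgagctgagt
Socs3: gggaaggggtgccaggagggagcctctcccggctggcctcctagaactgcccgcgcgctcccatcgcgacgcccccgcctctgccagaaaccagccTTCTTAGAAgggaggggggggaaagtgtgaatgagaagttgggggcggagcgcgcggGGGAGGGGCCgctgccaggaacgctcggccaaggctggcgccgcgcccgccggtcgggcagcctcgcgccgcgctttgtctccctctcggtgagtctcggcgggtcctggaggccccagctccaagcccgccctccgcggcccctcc
Nfkbia: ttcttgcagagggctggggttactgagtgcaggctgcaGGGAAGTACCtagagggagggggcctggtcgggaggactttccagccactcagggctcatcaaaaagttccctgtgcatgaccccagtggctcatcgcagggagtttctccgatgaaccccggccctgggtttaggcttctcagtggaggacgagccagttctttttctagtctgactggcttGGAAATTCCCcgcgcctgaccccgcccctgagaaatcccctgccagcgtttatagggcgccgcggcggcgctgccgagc

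In the Il6ra promoter, the E-box began at position -24 from the start site and 2 overlapping kappaB matches began at -224 and -223. That of Socs3 held a STAT match at -154 and a kappaB match at -97, and that of Nfkbia held kappaB matches at -212 and -29. RefSeq promoters were found for 8 of the 10 genes (9 promoters), and Nfkb1 and Tlr4 were not among them. Among the others, Myd88 held a STAT match at -46, Tlr2 held overlapping kappaB matches beginning at -173 and -172 and again from -9 to -7, Rela held them at -218, -217 and -66, and 1 of the 2 promoters of Il1r1 held one at -232. Stat3 held none of these motifs. Of all 32851 promoters of the same length, 50.8% held the kappaB motif, 8.3% the STAT motif and 7.15% the E-box, so a kappaB match is common by itself. Also searched was AGGTCA, the core that ROR and REV-ERB factors share with other nuclear receptors, which was in 16.3% of all promoters and among these genes only in Tlr2, at -15, directly before the first of the kappaB matches from -9. These matches are letters in the window and not measured binding.

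The deposited value of a gene in a liver is its estimated read count plus 0.5, scaled to 1000000 reads of a library size set by the authors, and is called the normalized value here. Depth ran from 10268168 to 23242842 estimated reads per liver. Over 18 core clock genes, 17 of the 18 livers lay nearest to the mean of their own time point, and the exception was liver 9 of ZT5, which lay nearest to ZT9. Leaving it out changed no call on the 10 genes by any test.

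Livers 14 of ZT9 and 20 of ZT13 stood apart in some of the acute phase genes that STAT3 induces, a pattern noticed after the values were seen. The serum amyloid gene Saa1 was at 901 in liver 14 and 623 in liver 20, next at 228 in liver 27 of ZT17, and between 15.9 and 68 in the others. Saa2 was at 686 and 371 in these livers and at 88.6 in liver 27, and the iron carrier gene Lcn2 at 35.6 and 8.04 against at most 4.04 elsewhere. Of 23 STAT3 targets, 14 had their highest value in liver 14 and 5 in liver 20. Others were low in these livers. Apcs was at 47.9 in liver 20, the lowest of all, and in liver 14 Hamp was at 203 and Bcl3 at 12.6. Of the 10 genes described here, Stat3 had its highest value in liver 14 and Socs3 its second highest in liver 20. With both livers left out, which leaves 2 each at ZT9 and ZT13, limma's tests called 2 of the 10, Il6ra and Socs3, against 30.5% of all genes by the cosine and 21.2% among time points, and the results that change are given with each gene.

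Over the day, the time means of Il6ra and Socs3 varied by about 3-fold and those of the NF-kB subunits little. Between them were Tlr2 and Tlr4, each at 2.04-fold, and Il1r1 at 1.85-fold. By a 24 h cosine fitted with limma to log2(value + 1), 5 of the 10 genes passed an adjusted p of 0.05 (Il6ra, Socs3, Tlr2, Il1r1 and Nfkb1), against 35.3% of all 14449 genes tested. The fitted peak fell in the light phase for 3 of the 10 (Il6ra, Socs3 and Tlr2, against 18.2% of all genes) and in the dark phase for 2 (Il1r1 and Nfkb1, against 17.1%). A limma test of any difference among the 6 time points called 2, Il6ra and Socs3, against 26.3% of genes. The rank-based JTK called 1 of the 10, against 14.1%, MC, which combines JTK with Lomb–Scargle, called 1, against 18.3%, and the cosine curve of CircaN called 1, against 11.2%, each time Il6ra. The livers of the highest and the lowest time point did not overlap for 7 of the 10, against 70.8% of all genes, the exceptions being Nfkbia, Tlr4 and Myd88. Read against these shares, none of the counts is taken as particular to these 10 genes.

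**Figure D1:**
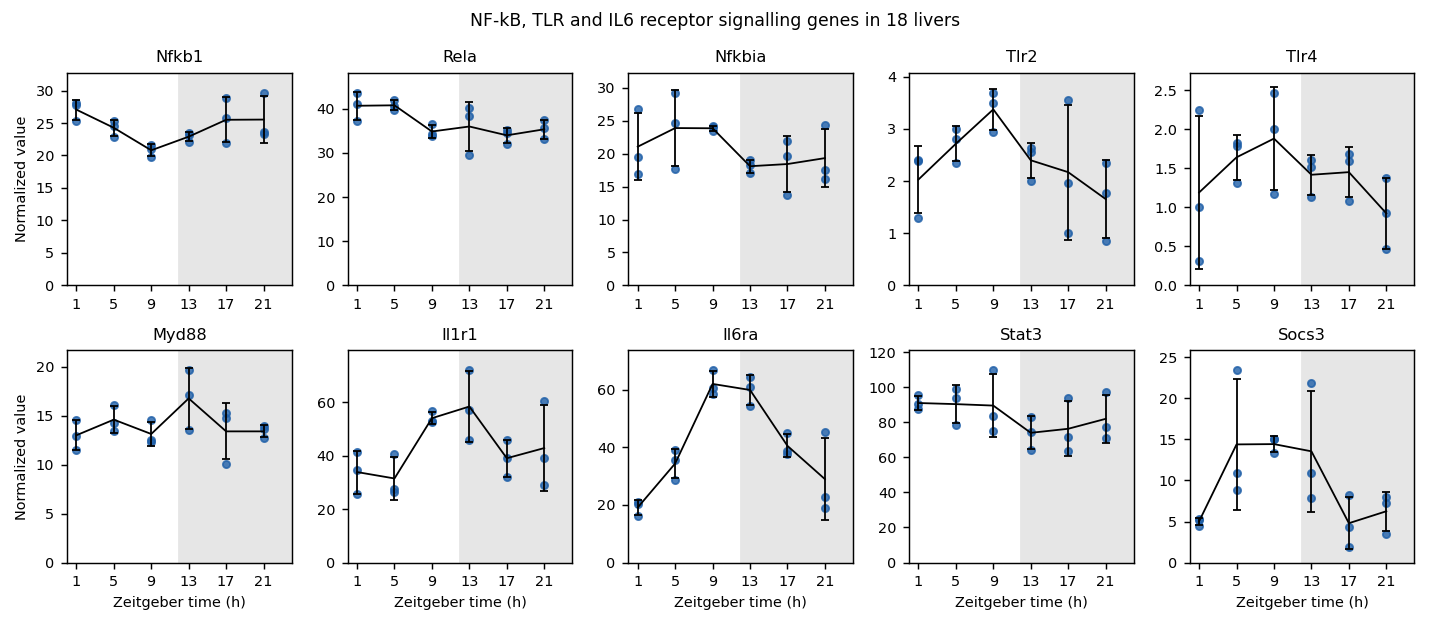
Normalized value (vertical axes, each from 0) against zeitgeber time in hours for the 10 genes; points are single livers, lines join the means of 3 livers, bars are SD and shading is the dark phase. Il6ra climbs from a mean of 19.1 at ZT1 to 62 at ZT9, whereas the time points of Rela lie between 34 and 40.8.

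Il6ra (ENSMUSG00000027947, chr3:89864059-89913196, minus strand, coordinates here and below from GRCm38) encodes the ligand-binding chain of the interleukin 6 receptor. Its normalized values were 20.3, 16 and 21 in the 3 livers of ZT1, 38.9, 28.7 and 35.5 at ZT5, 58.6, 60.4 and 66.9 at ZT9, 64.5, 60.8 and 54.3 at ZT13, 37.6, 38.8 and 45 at ZT17, and 22.7, 45.2 and 18.9 at ZT21. All 6 livers of ZT9 and ZT13 stood above all others, and all of ZT1 stood below those of ZT5, ZT9, ZT13 and ZT17. Liver 32 of ZT21 was the exception within its time point, at 45.2 where the others were at 22.7 and 18.9. The mean went from 19.1 ± 2.73 at ZT1 to 62 ± 4.38 at ZT9 (SD, n = 3), a 3.25-fold range resting on 175 to 887 estimated reads per liver, and a log2 difference of 1.66 ± 0.23 (SE). In the order of the time means, the only neighbours whose livers did not overlap were ZT13 and ZT17.

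The fitted cosine of Il6ra had an amplitude of 0.82 ± 0.09 log2 units (SE), which is the distance from the fitted mean to the fitted peak, and a peak at ZT 11.7 ± 0.4 h, shortly before lights off. It accounted for an R-squared of 0.819, and the adjusted p was 1.56e-05 by limma's cosine test and 0.000332 by its test among time points. JTK gave q = 0.0184 and MC q = 0.00385, while the CircaN cosine had a period of 23.6 h and an R-squared of 0.839, above the 0.7 that CircaN calls require. With any 1 liver left out, Il6ra was called by all of these tests, with amplitudes from 0.77 to 0.91, the largest without liver 32. Without livers 14 and 20 the amplitude was 0.82 ± 0.11 log2 units (adjusted p = 0.000175), MC gave q = 0.0289, and JTK missed its threshold at q = 0.075.

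Of 6 hepatocyte markers, 2 passed the limma cosine, against 35.3% of all genes. Hnf4a, a transcription factor of hepatocytes, was at 699 ± 76.2 at ZT13 and 453 ± 8.74 at ZT1 (SD, n = 3), with a peak at ZT 12.8 h near that of Il6ra (adjusted p = 0.00372), and Ttr peaked at ZT 21.7 h (adjusted p = 0.0122). The summed normalized value of the 6, most of it albumin (Alb), was lowest at ZT9, with 69715 to 73860 against 75304 to 99814 in all other livers. The part of these markers in the Il6ra result was not tested. Over 9331 genes with a mean value of at least 5, the 2 patterns most like that of Il6ra over the 18 livers were those of Tnks1bp1, with 65.4 ± 1.66 at ZT9 and 36.2 ± 1.39 at ZT1, and of Por, which encodes the electron donor of cytochrome P450 enzymes, with 488 ± 108 at ZT13 and 91.8 ± 16.7 at ZT1 (SD, n = 3). Their root mean square differences from Il6ra were 0.361 and 0.368 SD units, where the median gene had 1.41.

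Socs3 (ENSMUSG00000053113, chr11:117966079-117970047, minus strand) encodes the inhibitor that STAT3 induces and that blocks the kinases at the interleukin 6 receptor. In single livers the normalized value was 5.36, 4.50 and 5.21 at ZT1, 23.5, 8.79 and 10.9 at ZT5, 13.3, 15 and 15 at ZT9, 10.9, 21.9 and 7.86 at ZT13, 1.89, 8.18 and 4.31 at ZT17, and 8.03, 3.52 and 7.20 at ZT21. The livers of ZT9 were close together and above every liver of ZT1, ZT17 and ZT21, whereas those of ZT5 and ZT13 were spread widely, with liver 7 and liver 20 the highest of all. The mean was 14.5 ± 0.991 at ZT9 and 4.79 ± 3.17 at ZT17 (SD, n = 3), a 3.02-fold range and a log2 difference of 1.57 ± 0.42 (SE), from 27 to 320 estimated reads.

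The fitted cosine amplitude of Socs3 was the same as that of Il6ra, 0.82 log2 units, but had an SE of 0.18 against 0.09, and its peak was at ZT 8.6 ± 0.8 h. Adjusted p was 0.00561 by limma's cosine and 0.0215 among the 6 time points, and both calls held with any 1 liver left out (amplitudes 0.74 to 0.93) and without livers 14 and 20 together (0.0131 and 0.0476). JTK (q = 0.0844) and MC (q = 0.0953) did not call it, and the CircaN cosine had an R-squared of 0.502. The JTK result depended on its null, as JTK called Socs3 with time points of equal cosine merged into 1 group. The mean CV within a time point was 38.5% for Socs3 and 17.3% for Il6ra. Whether the peaks of the 2 genes differ in time was not tested.

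Stat3 (ENSMUSG00000004040, chr11:100885098-100939540, minus strand), the transcription factor between these 2 genes, passed no test. The livers had normalized values of 87.5, 90.2 and 95.3 at ZT1, 99.0, 93.9 and 78.2 at ZT5, 83.4, 110 and 75.2 at ZT9, 74.5, 83.1 and 64.4 at ZT13, 63.4, 71.7 and 93.8 at ZT17, and 70.8, 97.5 and 77.6 at ZT21. The livers of ZT1 were all above those of ZT13, the highest and lowest means at 1.23-fold apart, and the other time points overlapped both. The amplitude was 0.16 ± 0.06 log2 units, the same as the median of all genes, with an adjusted p of 0.129 by the cosine, which became 0.0491 without liver 27 of ZT17 and 0.0749 without livers 14 and 20.

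Il1r1 (ENSMUSG00000026072, chr1:40225080-40317257, plus strand) encodes the signalling receptor for interleukin 1. Per liver, the normalized values were 41.5, 34.5 and 25.5 at ZT1, 27.4, 40.7 and 26.2 at ZT5, 52.6, 56.5 and 52.8 at ZT9, 72.1, 57.0 and 45.9 at ZT13, 31.9, 45.9 and 39.2 at ZT17, and 60.3, 29.1 and 39.0 at ZT21. Every liver of ZT9 and ZT13 was above every liver of ZT1 and ZT5, while ZT21 reached from 29.1 to 60.3. The mean went from 31.4 ± 8.06 at ZT5 to 58.3 ± 13.1 at ZT13 (SD, n = 3), 1.85-fold, with a log2 difference of 0.87 ± 0.25 (SE).

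For Il1r1 the cosine had an amplitude of 0.38 ± 0.11 log2 units, a peak at ZT 12.8 ± 1.1 h and an adjusted p of 0.0376, and the test among time points gave 0.055. The first call depended on single livers: it held in 8 of 18 when livers were left out singly, those without livers 1, 8, 9, 21, 25, 27, 31 and 33, and the adjusted p ranged from 0.00773 to 0.0998. The test among time points passed in 5 of them, without livers 1 (0.0463), 8 (0.0353), 21 (0.0481), 31 (0.0212) and 32 (0.0309). Without livers 14 and 20 the adjusted p was 0.11 by the cosine. JTK (q = 0.417) and MC (q = 0.612) did not call Il1r1.

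Tlr2 (ENSMUSG00000027995, chr3:83836272-83841767, minus strand) encodes the receptor for bacterial lipoproteins. Its normalized values were low, 2.39, 2.41 and 1.29 at ZT1, 2.80, 3 and 2.35 at ZT5, 2.94, 3.49 and 3.70 at ZT9, 2.01, 2.63 and 2.56 at ZT13, 1.96, 0.995 and 3.56 at ZT17, and 0.848, 1.78 and 2.34 at ZT21. These values rest on 10 to 56 estimated reads per liver. All livers of ZT9 were above those of ZT1, ZT13 and ZT21, and liver 27 of ZT17 was as high as ZT9 while liver 26 of the same time point was among the lowest. The mean was 3.38 ± 0.395 at ZT9 and 1.66 ± 0.755 at ZT21 (SD, n = 3), 2.04-fold apart, with a log2 difference of 0.76 ± 0.26 (SE) on the log2(value + 1) scale, which understates changes at this level.

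The cosine of Tlr2 had an amplitude of 0.34 ± 0.10 log2 units, a peak at ZT 8.6 ± 1.1 h and an adjusted p of 0.0332. At such low values the amplitude depends on the number added before the logarithm, and it was 0.45 with 0.25 added and 0.15 with 5, the call holding in both (0.0415 and 0.0345). The call was lost without liver 8 (0.0517), 14 (0.0678), 15 (0.0745) or 31 (0.092), as well as without livers 14 and 20 together (0.0896), and held in the other 14 such fits. JTK (q = 0.128) and MC (q = 0.214) did not call it with all livers, but did without liver 27 (q = 0.0389 and 0.0228). The test among time points gave an adjusted p of 0.213.

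Tlr4 (ENSMUSG00000039005, chr4:66827584-66930284, plus strand), the receptor for bacterial lipopolysaccharide, passed no test. In single livers the normalized value was 2.25, 0.318 and 1 at ZT1, 1.82, 1.79 and 1.31 at ZT5, 2, 2.47 and 1.17 at ZT9, 1.51, 1.13 and 1.61 at ZT13, 1.68, 1.08 and 1.59 at ZT17, and 0.928, 1.37 and 0.469 at ZT21. These rest on 3 to 32 estimated reads per liver, the mean CV within a time point was 37.3%, and ZT1 covered most of the range of all livers. The mean was 1.88 ± 0.657 at ZT9 and 0.921 ± 0.449 at ZT21 (SD, n = 3). These are 2.04-fold apart, as for Tlr2, but the livers of the 2 time points overlapped. The fitted peak, at ZT 9.5 ± 1.5 h, lay within its error of that of Tlr2, but the amplitude of 0.25 ± 0.10 log2 units had an adjusted p of 0.138 (0.0422 without liver 1). The amplitude was 0.41 with 0.25 added before the logarithm and 0.09 with 5, and neither passed (0.148 and 0.175).

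Tlr2 is carried by Kupffer cells as well as hepatocytes, and markers of the macrophages had fitted peaks near its own at ZT 8.6 h. Most of these markers had their highest mean at ZT5, whereas Tlr2 had it at ZT9. Whether they move together was not tested. All 11 markers of Kupffer cells and macrophages were tested, all 11 had fitted peaks between ZT 7.8 and 9.9 h, none was at the floor in any liver, and 5 passed the limma cosine test, against 35.3% of all genes. These 5 were Cd5l (amplitude 0.59 ± 0.12 log2 units, adjusted p = 0.00246), the scavenger receptor Marco (0.75 ± 0.16, adjusted p = 0.00522), the phagocytic receptor Timd4 (0.38 ± 0.09, adjusted p = 0.0101), the complement chain C1qb (0.35 ± 0.10, adjusted p = 0.0234) and the growth factor receptor Csf1r (0.37 ± 0.10, adjusted p = 0.0283). JTK called 0 of the 11, against 14.1% of all genes, and limma's test among time points called 1, against 26.3%. At an unadjusted JTK p below 0.05 stood 3 of the 11, and 4027 of all 14449 genes. The cosine count of 5 became 8 without liver 27 and 3 without liver 31. In bulk RNA, fewer cells of a type and less RNA per cell cannot be told apart.

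The summed normalized value of the 11 markers ran from 185 to 348 at ZT1, 295 to 400 at ZT5, 308 to 371 at ZT9, 282 to 376 at ZT13, 155 to 353 at ZT17 and 155 to 243 at ZT21. Liver 27, which had the second highest Tlr2 value of all (3.56), had a sum of 353, the highest of ZT17. Livers 26 and 31, the lowest in Tlr2 at 0.995 and 0.848, each had a sum of 155, the lowest of all. Tlr2 did not follow the sum throughout: livers 7, 21 and 1, with sums of 400, 376 and 348, had Tlr2 values of 2.80, 2.56 and 2.39. The 8 sinusoidal endothelial markers had fitted peaks between ZT 6.5 and 9.7 h, 4 passed the limma cosine test, against 35.3% of all genes (0 by JTK, against 14.1%, and also 0 at an unadjusted p below 0.05, where 4027 of 14449 genes stood), none was at the floor, and their sums went from 257 to 317 at ZT5 down to 149 to 221 at ZT21. The peaks of Tlr2, Tlr4 and Socs3 lie in the same hours as these 2 marker lists, and the part of cell numbers in those results was not tested. These hours are not particular to the 2 lists. The stellate markers Reln, Lrat, Col3a1, Colec11 and Col1a1 had fitted peaks between ZT 6.5 and 9.3 h, but Dcn and Des at 18.3 and 17.3 h. Of the 7 stellate markers 1 passed the limma cosine, against 35.3% of all genes, Col3a1 (adjusted p = 0.0258).

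**Figure D2:**
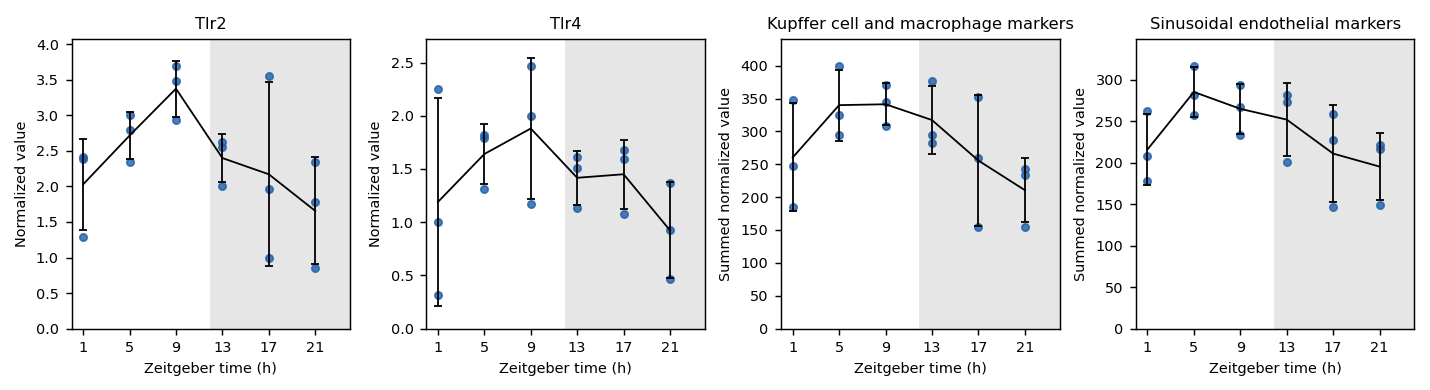
Normalized value of Tlr2 and Tlr4 and summed normalized value of the Kupffer cell and sinusoidal endothelial markers (vertical axes) against zeitgeber time in hours; points are livers, lines join means of 3, bars are SD and shading is the dark phase. Tlr2 has its highest mean at ZT9 (3.38) and its lowest at ZT21 (1.66), and the Kupffer cell sum has means of 341 and 211 at the same times.

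Myd88 (ENSMUSG00000032508, chr9:119335934-119341411, minus strand), the adaptor shared by these receptors, had the smallest fitted amplitude of the 10, 0.09 ± 0.07 log2 units, with an adjusted p of 0.522; leaving out single livers gave 0.04 (without liver 19) to 0.12. Its normalized values lay between 10.1 (liver 26, ZT17) and 19.7 (liver 19, ZT13). The time means ran from 13 ± 1.53 at ZT1 to 16.8 ± 3.12 at ZT13 (SD, n = 3), and the livers of these time points overlapped. It was called in 0 of the 18 fits with a single liver removed, by limma's cosine as by the other tests.

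Nfkb1 (ENSMUSG00000028163, chr3:135584655-135691547, minus strand) encodes the precursor p105 of the NF-kB subunit p50. The livers had normalized values of 28.1, 25.3 and 27.8 at ZT1, 25.3, 22.9 and 24.6 at ZT5, 19.8, 21.6 and 21.0 at ZT9, 23.5, 22.1 and 23.1 at ZT13, 28.8, 21.9 and 25.8 at ZT17, and 23.3, 29.7 and 23.6 at ZT21. The livers of ZT9 were the lowest 3 of the 18, which is the time at which Il6ra, Socs3 and Tlr2 had their highest means. The mean was 27.1 ± 1.51 at ZT1 and 20.8 ± 0.913 at ZT9 (SD, n = 3), 1.3-fold apart, with a log2 difference of 0.36 ± 0.11 (SE) and 224 to 590 estimated reads per liver.

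The cosine of Nfkb1 had an amplitude of 0.15 ± 0.04 log2 units and a peak at ZT 22.3 ± 1.1 h, late in the dark phase. Its adjusted p of 0.0396 was near the threshold: it held in 9 of 18 fits with a single liver removed (without livers 2, 7, 9, 19, 25, 26, 27, 31 and 33; range 0.0201 to 0.0908) and was lost at 0.0925 when all livers were scaled to the same total, and at 0.103 without livers 14 and 20. The test among time points gave 0.134, and JTK gave q = 0.158. MC gave q = 0.187, or 0.0473 without liver 26.

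Rela (ENSMUSG00000024927, chr19:5637483-5648130, plus strand) encodes p65, the subunit that carries the transactivation domain of the common NF-kB dimer. Per liver, the normalized values were 37.3, 43.7 and 41.1 at ZT1, 39.8, 42.0 and 40.6 at ZT5, 33.8, 34.2 and 36.6 at ZT9, 40.1, 38.3 and 29.6 at ZT13, 35.3, 32.1 and 34.6 at ZT17, and 37.4, 35.6 and 33.1 at ZT21. The livers of ZT1 and ZT5 stood above those of ZT9 and ZT17, with a span of 1.2-fold between the highest and lowest means. The cosine missed the threshold, with an amplitude of 0.13 ± 0.04 log2 units, a fitted peak at ZT 3.2 ± 1.3 h and an adjusted p of 0.0766. It passed without liver 19 (0.0261) or 20 (0.0491) of ZT13, with the livers scaled to the same total (0.0138), and with 5 added before the logarithm in place of 1 (0.0483).

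Nfkbia (ENSMUSG00000021025, chr12:55489410-55492647, minus strand) encodes IkB-alpha, which NF-kB induces and which holds NF-kB in the cytoplasm. Its normalized values were 16.9, 19.5 and 26.8 at ZT1, 17.7, 29.3 and 24.7 at ZT5, 24.2, 23.4 and 24 at ZT9, 18.3, 17 and 19 at ZT13, 19.7, 13.7 and 21.9 at ZT17, and 16.1, 24.3 and 17.6 at ZT21. ZT9 and ZT13 were each tight and did not overlap, while ZT1, ZT5 and ZT21 overlapped both, and the highest mean, of ZT5, was 1.32-fold the lowest, of ZT13. The cosine amplitude was 0.21 ± 0.08 log2 units with a fitted peak at ZT 5.7 ± 1.5 h and an adjusted p of 0.119 (0.0463 without liver 7).

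**Figure D3:**
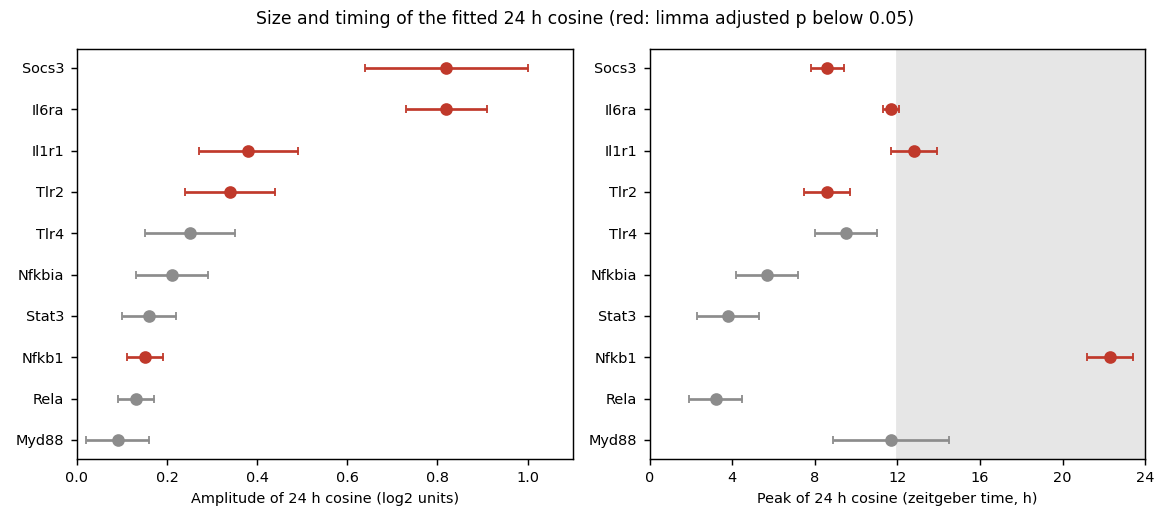
Amplitude in log2 units (left) and peak in zeitgeber hours (right) of the 24 h cosine fitted by limma to each of the 10 genes; points are estimates, bars are SE, red marks an adjusted p below 0.05 and shading is the dark phase. Il6ra and Socs3 share an amplitude of 0.82, and of the genes in red Nfkb1 alone peaks late in the dark phase, at 22.3 h.

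Over the 10 genes, the median log2 deviation of a liver from the mean of its time point lay between -0.16 (liver 21 of ZT13) and 0.16 (liver 32 of ZT21). At ZT17, all 10 genes were above this log2 mean in liver 27 (median 0.12) and 2 of the 10 in liver 26 (median -0.14). On the linear scale Socs3 in liver 27, at 4.31, was below its ZT17 mean of 4.79.

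The wider pathways were read from 5 lists of genes; the first 3 include the 10. For none of the 5 was the share of genes called compared by a test with that of all genes. Of the NF-kB subunits, inhibitors and kinases, 7 of 22 tested passed the limma cosine (5 with a peak in the light phase and 2 in the dark), against 35.3% of all genes (18.2% in the light phase and 17.1% in the dark), with a median amplitude of 0.16, equal to that of all genes. Tab2, an adaptor of the kinase TAK1, also passed JTK (q = 0.00717): it was at 74.6 ± 6.17 at ZT1 and 39.6 ± 3.08 at ZT13 (SD, n = 3), with an amplitude of 0.41 ± 0.05 log2 units and a peak at ZT 0.4 h. JTK called 1 of the 22, against 14.1% of all genes. The rule for naming genes, a pass by both tests, gave no other gene of this list.

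Of the Toll-like and interleukin 1 receptors and adaptors, 12 of 31 passed, against 35.3% of all genes, with a median amplitude of 0.21. The peak was in the light phase for 8 (18.2% of all genes) and in the dark for 4 (17.1%). JTK called 1 of the 31, against 14.1% of all genes. This was Tollip (q = 0.0278), an adaptor that dampens receptor signalling, with 63.8 ± 4.25 at ZT9 and 43.2 ± 2.68 at ZT17 (SD, n = 3). It peaked at ZT 8.1 h, near Tlr2.

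The list of the interleukin 6 family, JAK, STAT and SOCS genes had 12 of 29 pass, against 35.3% of all genes, 9 in the light phase (18.2% of all genes) and 3 in the dark (17.1%), with a median amplitude of 0.18. JTK called 6, against 14.1%, of which Il6ra was the widest. The kinase gene Tyk2 was at 22.9 ± 1.61 at ZT5 and 14.2 ± 0.823 at ZT17, with a peak at ZT 3.6 h (adjusted p = 0.000257). Stat5b, the growth hormone responsive STAT of liver, was at 66.5 ± 2.59 at ZT1 and 39.1 ± 5.8 at ZT17, with a peak at ZT 1.4 h (adjusted p = 0.000366). Stat5b thus had its highest mean at ZT1, where Il6ra had its lowest (19.1). Tyk2 had its highest at ZT5, where Il6ra was already at 34.4.

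Socs7, a relative of Socs3, was at 19.7 ± 0.848 at ZT9 and 11.8 ± 0.647 at ZT1, with a peak at ZT 8.7 h beside the 8.6 h of Socs3 (adjusted p = 0.000828). Il11ra1, the receptor of the related interleukin 11, ran opposite to Il6ra, at 38.3 ± 5.66 at ZT1 and 20.2 ± 1.03 at ZT9, with a peak at ZT 21.5 h (adjusted p = 4.11e-05). Il10rb, a chain of the interleukin 10 receptor, was at 8.26 ± 1.81 at ZT5 and 5.36 ± 1.28 at ZT17 (adjusted p = 0.0276). Il6 itself and Socs1 were not analysed here.

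**Figure D4:**
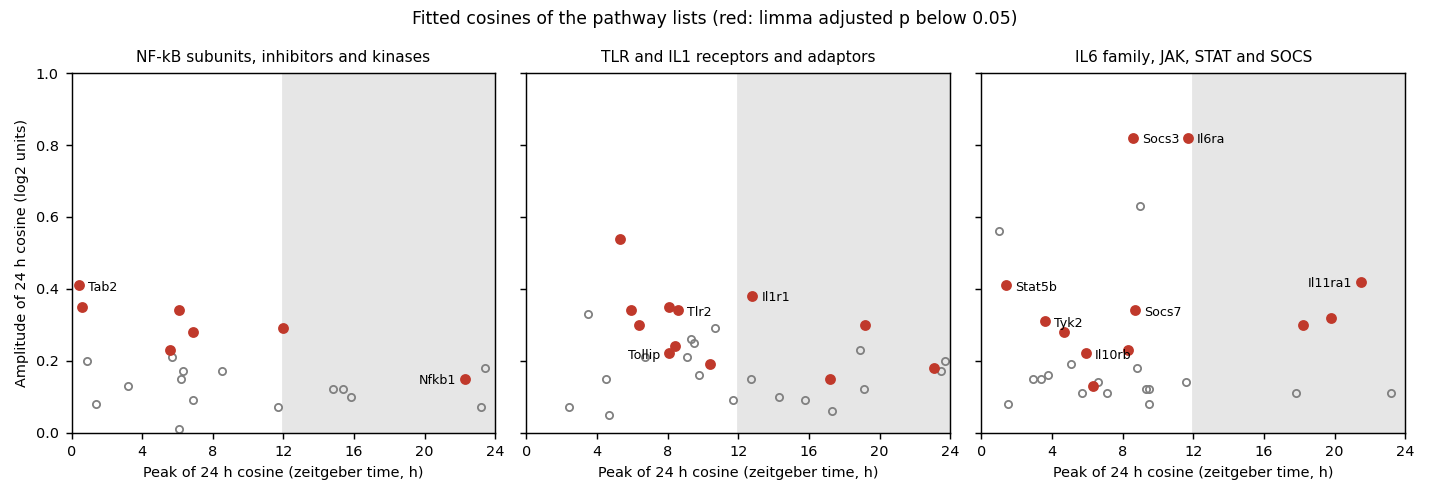
Amplitude in log2 units (vertical axis) against peak time in zeitgeber hours (horizontal axis) of the 24 h cosine for the tested genes of 3 pathway lists; each point is a gene, red marks an adjusted p below 0.05, shading is the dark phase, and labels name the genes given in the text. Il6ra and Socs3 have the widest rhythms of the 3 lists, at 0.82 log2 units.

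Of the known targets of NF-kB, 6 of 16 passed the limma cosine, against 35.3% of all genes. The peak was in the light phase for 3 (18.2% of all genes) and in the dark for 3 (17.1%). The median amplitude was 0.19, and JTK called 3, against 14.1%. Without livers 14 and 20, JTK called 0 of the 16, against 8.71% of all genes in that fit, and limma's cosine 5, against 30.5%. The mitochondrial superoxide dismutase Sod2 was at 202 ± 3.43 at ZT13 and 159 ± 8.12 at ZT5, with a peak at ZT 16 h. The adhesion molecule Vcam1 was at 16.3 ± 1.04 at ZT13 and 7.04 ± 1.38 at ZT1, with a peak at ZT 12.4 h, and the receptor Cd40 at 1.77 ± 0.121 at ZT9 and 0.911 ± 0.313 at ZT21, with a peak at ZT 8.0 h (SD, n = 3; JTK q = 0.0349 for each). Cd40 was low, with normalized values of 0.582 to 1.88 in single livers. The fitted peaks of these 3 targets ran from ZT 8.0 to 16 h, and whether they differ in time was not tested.

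Of the STAT3 targets in liver, 9 of 23 passed, against 35.3% of all genes, with a median amplitude of 0.31. The peak was in the light phase for 6 (18.2% of all genes) and in the dark for 3 (17.1%). JTK called 4 of the 23, against 14.1%. Livers 14 and 20 carried the highest values of 14 and 5 of these genes. Without both livers 11 of the 23 passed the cosine, against 30.5% of all genes in that fit, and 5 JTK, against 8.71%. Steap4, a metalloreductase, was at 153 ± 43.2 at ZT13 and 77.5 ± 11.1 at ZT1, with a peak at ZT 11.9 h (JTK q = 0.0349). The protease inhibitor Serpina3n was at 364 ± 168 at ZT9 and 192 ± 5.03 at ZT1, with liver 14 at 557 among the ZT9 livers and the others at 252 and 282. Its cosine passed (amplitude 0.37 ± 0.09 log2 units, peak at ZT 11.1 h, adjusted p = 0.0085), as did JTK (q = 0.0349), but not the test among time points (0.0666), and without liver 14 the amplitude was 0.28 (adjusted p = 0.00186). Without livers 14 and 20, the JTK calls of Steap4 (q = 0.121) and Serpina3n (q = 0.0963) were lost, while limma's cosine called both (adjusted p = 0.00807 and 0.00609). The fibrinogen chain Fgg went the other way, with 4050 ± 54 at ZT1 and 2464 ± 298 at ZT13 and a peak at ZT 0.9 h (JTK q = 0.0431), and the immediate early gene Junb was at 24.2 ± 1.67 at ZT5 and 7.99 ± 2.08 at ZT13, with a peak at ZT 4.1 h (JTK q = 0.0148).

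With single livers left out, limma's cosine called each gene named from these lists in all 18 fits, apart from Il10rb, which was lost without livers 7, 26 or 27. JTK called Tab2, Tyk2, Socs7, Il11ra1 and Junb in all 18, Stat5b in 15, Tollip in 14, Sod2 and Steap4 in 13, Vcam1 in 12, Cd40 in 11, Serpina3n in 9, Il10rb in 6 and Fgg in 3. Without livers 14 and 20 together, limma's cosine called all of these genes but Il10rb (adjusted p = 0.0588), and JTK called Tab2, Tyk2, Stat5b, Il11ra1, Fgg and Junb.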

How the data were processed

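Livers of 18 mice were sequenced, and the authors assigned reads to GRCm38 genes with RSEM 1.2.20 (CASAVA 1.8.2 and cutadapt are also in the submitters' processing notes) and normalized with limma. The deposited unit is a linear signal: reads estimated per gene, with 0.5 added, per 1000000 of an effective library size. How that size was set is not given in the sources used here. Estimated reads were worked out from each liver's lowest value, taken as 0 reads. Genes at that floor in every liver (2) were left out.

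All 14449 other genes entered each test, with adjusted p and q by Benjamini–Hochberg over all of them. A 24 h cosine, and separately the 6 time points, were fitted to log2(value + 1) by limma 3.58.1 (R 4.3.3). JTK compared ranks with 18 cosine orders of 20, 24 and 28 h, against an exact null for 6 groups of 3 livers. MC combined it with Lomb–Scargle by Fisher's procedure. Of the 7 CircaN curves only the cosine was fitted, and its calls needed an R-squared of 0.7 or more beside q below 0.05. These ran in Python 3.11.15 and were tested on simulated data. Livers had 10268168 to 23242842 estimated reads, Tlr2 and Tlr4 rest on 3 to 56 each.

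The 10 genes, the lists and the tests were chosen with earlier results of these data known. Named from each list were the genes passing both limma's cosine and JTK, at most 6 by smallest p, and for each of the 10 passing both, the 2 genes most alike in pattern. A fit without livers 14 and 20 was added after the data were seen. Other alternatives covered scaling, filter, pseudocount, threshold, the orders and the null of JTK, and single livers left out. Coordinates are from GENCODE M21.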

Additional observations from a re-analysis of the deposited data

How the results depend on the processing

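No paired analysis was possible because the livers carry no number shared between time points. Of the recomputed counts of genes called, 229 stayed within 1.5 times the count given and 23 did not. With livers scaled to the same total, MC called 2 of the 10 genes, Il6ra and Rela. At a threshold of 0.01, JTK called 0 of the 10 (315 genes in all; Il6ra had q = 0.0184), MC 1326 genes in all, limma's cosine Il6ra and Socs3, 2 of the 10 (2862 genes), and limma's test among time points Il6ra alone, 1 of the 10 (1924 genes). With time points of equal cosine merged into 1 group in its null, JTK called 2 of the 10, Il6ra and Socs3. It then called 3237 genes in all, against 2039 with each time point as its own group. Without livers 14 and 20, an alternative chosen after seeing the data, limma's cosine called 2 of the 10 (Il6ra and Socs3), and JTK 0 of the 10 (Il6ra at q = 0.075) and 1259 genes. With 1 liver left out, limma's cosine called 2 to 6 of the 10 and 4573 to 5088 genes, the test among time points 2 to 3 and 3245 to 3598, JTK 1 to 2 and 1266 to 1913, MC 1 to 2 and 2027 to 2539, and CircaN 1 to 1 and 1540 to 1787. The cause of these moves was not tested, and where livers were left out neither was the part of their smaller number. Of the recomputed amplitudes of the 10 genes, 223 kept their side of the threshold, 30 lost the call, 7 gained it and 0 reversed. Tlr2 rests on 10 to 56 reads per liver and Tlr4 on 3 to 32; what depth contributes to their spread was not tested.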
